A study of Mus musculus with 2 samples.

Results

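Of 914 mature olfactory sensory neurons with a leading odorant receptor, 89 were led by a class I receptor, 41 in the olfactory epithelium of an OR1A1 transgenic mouse and 48 in that of a wild-type mouse. The members were chosen by their counts. A barcode was kept if it held 5000 or more UMIs (unique molecular identifiers, 1 per captured transcript) and 500 or more genes, with mitochondrial UMIs not above 10%. A kept cell was taken as mature with Omp and Stoml3 each at 0.15% or more of its UMIs, Gap43 under 0.05%, the globin transcripts Hbb-bs and Hba-a1 under 1% together, and the sustentacular gene Cyp2g1 under 0.1%. Its leading receptor was the intact Olfr gene with the most UMIs, at least 3 and more than the transgene, and a member's leading receptor was one of the genes named from Olfr544 to Olfr692. These rules left 2954 barcodes, 1128 mature cells and, beside the members, 825 mature cells led by another Olfr gene, 445 transgenic and 380 wild-type. The transgenic animal was a 9-week-old female carrying Tg(Or8a1-OR1A1,-MAPT/mCherry)D736Feins/+, in which, by the nomenclature of the label, Or8a1 sequences drive the human receptor gene OR1A1 and a MAPT/mCherry marker. The wild-type animal was an 8-week-old female from a cross of 10G4-V2.2-#7/Jax with Bl6/129SF1/J, per the labels. Each genotype was thus 1 animal of its own strain, so that genotype, strain, age and library cannot be told apart, and values of the 2 animals are given side by side without a test. Each class of cells was compared within the same 2 animals.

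Vertebrate odorant receptors fall into class I, related to the receptors of fish, and class II, which arose in land vertebrates. In the mouse the class I genes form 1 large cluster around the beta-globin genes, and most of their neurons lie in the dorsal zone of the epithelium, which also holds many class II neurons. A mature neuron typically transcribes 1 receptor gene from 1 allele. Dorsal neurons are known for Nqo1, a quinone reductase, and Acsm4, an acyl-CoA synthetase, and ventral neurons for the adhesion molecule Ncam2 and the semaphorin receptor Nrp2.

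The libraries held 70572741 transgenic and 55701219 wild-type UMIs, and 1 barcode sequence was shared by kept cells of both. Transgenic members had a median of 14573 UMIs and wild-type members one of 10795, against 14440 and 12834.5 in cells led by other receptors. All 10 mature markers listed, 8 of them outside the rule, were detected in members of both libraries. Among the 8 were the olfactory G protein gene Gnal and the channel gene Cnga2. Kept barcodes not called mature also gave all 10, so detection alone does not bear on the label. The 10 summed to 21332 and 24381 per 1000000 UMIs in transgenic and wild-type members, against 25025 and 27176 in cells led by other receptors. In the barcodes not called mature the sums were 2758 and 1350. Omp and Stoml3, which the rule used, are part of these sums. Omp made up 0.282% to 0.778% of UMIs in transgenic and 0.257% to 0.744% in wild-type members, above the threshold in both. All 6 markers of immature neurons were detected in members, summing to 1502 CPM (UMIs per 1000000 summed UMIs) for transgenic members and 859 CPM for wild-type ones, against 1097 and 950 CPM in the other cells, and their part in the results was not tested. The 5 sustentacular markers summed to 62.0 and 32.5 CPM in members, against 89.4 and 44.2 CPM in the others. Of 3 listed genes that mark other kinds of olfactory neurons, Gucy2d and Trpc2 were at 0 in members of both libraries. Gucy1b2 was detected at 1.63 and 1.91 CPM in members, against 6.48 and 0.202 CPM in the others. The threshold on receptor UMIs was seldom close. A single member in each library lay below 10 receptor UMIs, at 7 and 4, and the mature cells just outside had at most 1 UMI of a class I receptor, 6 transgenic and 4 wild-type cells in all.

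The 89 cells were led by 50 receptors, spread along the whole cluster. Of the 114 Olfr genes in that range of names, all on chromosome 7, 110 have only class I family names among their RefSeq synonyms and 4 have no unambiguous family. The receptors that led a cell made up 43.9% of them, against 43.5% of the 990 other receptors in the feature list. Among the 50, 28 led 1 cell, 14 led 2 cells and 8 led 3 or more, and 14 led cells in both libraries. In gene order, 66 class I genes lie on one side of the beta-globin genes and 48 on the other. On the first side 25 receptors led 21 transgenic and 22 wild-type cells, and on the second 25 receptors led 20 transgenic and 26 wild-type cells. Members made up 8.44% of the receptor-led mature cells of the transgenic animal (95% exact binomial interval 6.12% to 11.3%) and 11.2% of those of the wild-type animal (8.39% to 14.6%). Class I genes made up 10.3% of the receptors listed. The intervals overlap and cover counting error only, without the spread between animals.

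Olfr591 led most cells. Its UMIs were 74, 77 and 93 in 3 transgenic cells and 123, 159, 173 and 200 in 4 wild-type cells. Olfr672 led 2 transgenic cells with 286 and 348 UMIs and 4 wild-type cells with 72, 119, 184 and 185 UMIs. Olfr613 led 4 transgenic cells, with 63, 75, 86 and 102 UMIs, and no wild-type cell, while Olfr661 led 4 wild-type cells, with 73, 88, 95 and 156 UMIs, and no transgenic cell. Each animal gave few cells per receptor, and these counts were not compared with a test. Olfr594, Olfr658, Olfr681 and Olfr683 led 3 cells each, shared between the libraries. The 4 Olfr613-led cells stood apart from the other transgenic members in gene expression and are described last. Named calls that change without them are given beside the results.

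**Figure D1:**
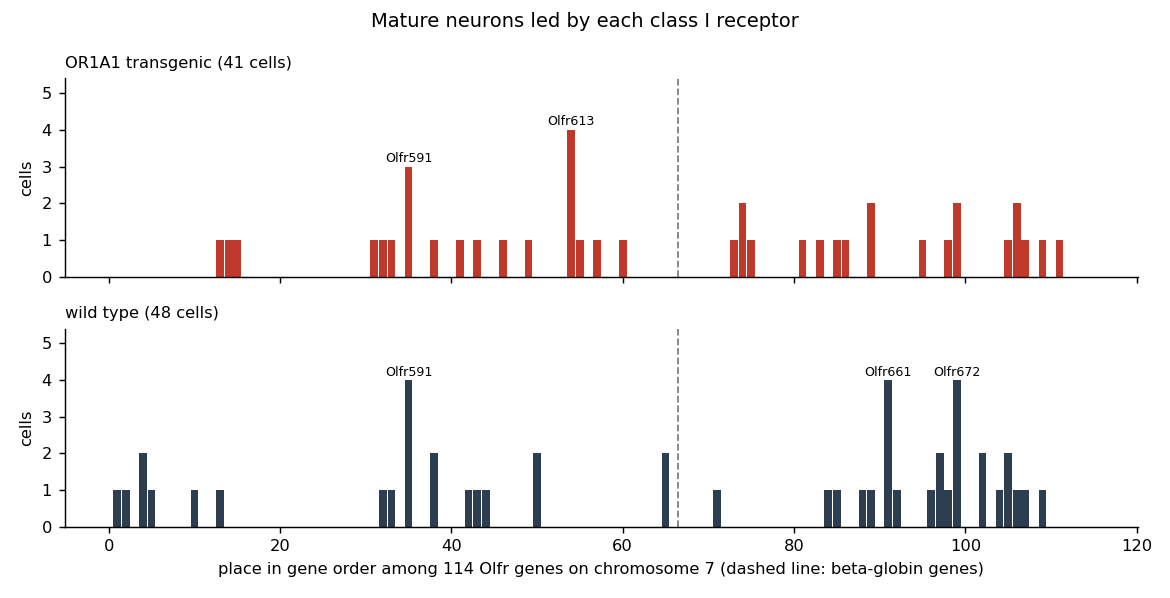
Number of mature neurons led by each of the 114 class I receptor genes (y axis, cells) in gene order along chromosome 7 (x axis), in the OR1A1 transgenic library above the wild-type library; the dashed line marks the beta-globin genes. Leading receptors lie on both sides of the line in both libraries, and Olfr591 leads 3 or more cells in each.

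The leading receptor made up nearly all receptor transcripts of a member. Its median was 84 UMIs in transgenic members, from 7 to 348, and 98.5 UMIs in wild-type members, from 4 to 333. Cells led by other receptors had medians of 95 and 115 UMIs. Since receptor UMIs chose the cells, these levels are a description. The leading receptor held a median of 98.4% of all Olfr UMIs in transgenic and 99.2% in wild-type members, close to the 99.2% and 99.4% of the other cells. With every cell thinned to 5000 UMIs, the medians were 29 and 49.5 UMIs in transgenic and wild-type members, against 33 and 46 UMIs in the others, so the order of the classes in the wild-type library was the opposite at equal depth.

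**Figure D2:**
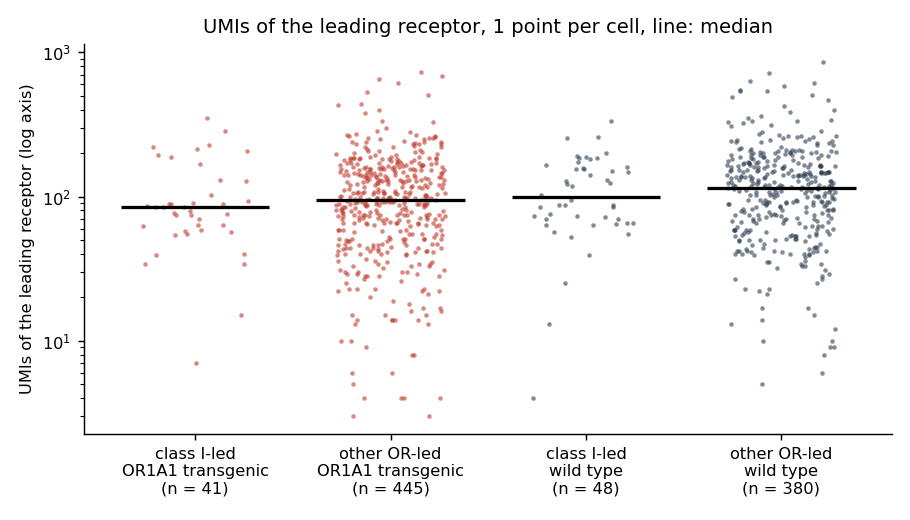
UMIs of the leading receptor (y axis, log scale) in each class I-led cell and each cell led by another receptor, by library; 1 point per cell, with the median as a line. The medians lie at 84 and 95 UMIs in the transgenic library and at 98.5 and 115 UMIs in the wild-type library, within widely overlapping clouds.

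A second receptor at 3 or more UMIs was found in 7 of 41 transgenic members (17.1%, interval 7.15% to 32.1%) and in 36 of 445 other transgenic cells (8.09%, 5.73% to 11%). In the wild-type library it was found in 0 of 48 members, which allows a share of up to 6.25%, and in 17 of 380 other cells (4.47%, 2.63% to 7.07%). All 7 second receptors of members had class I family names, against 4 of the 53 in the other cells. Of the 7, 5 lay within 5 receptor genes of the leading one, as did 30 of the 53 in the other cells. Olfr33 accompanied Olfr558 and Olfr559 with 3 and 5 UMIs, Olfr582 accompanied Olfr584 with 8 UMIs, and Olfr78 accompanied Olfr560 and Olfr618 accompanied Olfr617 with 5 UMIs each. Reads of closely related neighbours may be divided by the counting, which these files cannot show. The other 2 pairs were far apart in the cluster. An Olfr613-led cell held 27 UMIs of Olfr655 beside 102 of Olfr613, and an Olfr658-led cell held 12 UMIs of Olfr503 beside 34 of Olfr658. Olfr655 was also the second receptor of a transgenic Olfr868-led cell, with 14 UMIs, and of a wild-type Olfr1042-led cell, with 6 UMIs. No doublet caller was run.

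Transgene UMIs were counted in some transgenic members, in a library where 147 mature cells were led by the transgene. Whether these UMIs were the members' own transcripts was not tested. At least 1 UMI was found in 17 of 41 transgenic members (41.5%, interval 26.3% to 57.9%) and in 141 of 445 other receptor-led cells of that library (31.7%, 27.4% to 36.2%). Kept barcodes that were not called mature and had at most 1 Omp UMI carried one in 56 of 780 cells (7.18%), at a median of 13459 UMIs. Of these barcodes 33.5% held a Bcl11b UMI, 16.8% an Ncam2 UMI, 17.7% an Acsm4 UMI and 12.6% an Nqo1 UMI. Whether such UMIs came from immature neurons among them or from RNA of other cells was not tested. The 7.18% is not known to be a clean background. At 3 or more UMIs the transgene was found in 6 of 41 members (14.6%, 5.57% to 29.2%) and 36 of 445 other cells (8.09%, 5.73% to 11%). The highest member values were 20 UMIs beside 59 of Olfr594 and 13 UMIs beside 57 of Olfr605. By the rule no member had more transgene than receptor UMIs. In the wild-type library 0 of 48 members had a transgene UMI, which allows up to 6.25%, and 0 of 380 other cells, which allows up to 0.789%.

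The members were dorsal in expression, with few exceptions. More Nqo1 than Ncam2 UMIs, called dorsal-type here, were found in 35 of 41 transgenic members (85.4%, interval 70.8% to 94.4%) and 47 of 48 wild-type members (97.9%, 88.9% to 99.9%). Of the cells led by other receptors, 121 of 445 transgenic (27.2%, 23.1% to 31.6%) and 115 of 380 wild-type ones (30.3%, 25.7% to 35.2%) were dorsal-type. The median number of Nqo1 UMIs was 15 in transgenic members and 17 in wild-type ones, and 34 and 45 of them had no Ncam2 UMI. The 7 members with more Ncam2 than Nqo1, called ventral-type, were the 4 Olfr613-led cells, 1 of 3 Olfr658-led cells and an Olfr686-led cell in each library. All 7 had 0 Nqo1 UMIs. Both libraries thus gave an Olfr686-led cell without Nqo1, with 15 receptor UMIs in the transgenic cell and 63 in the wild-type one. The ventral-type Olfr658-led cell, which also held Olfr503, and the wild-type Olfr686-led cell had 0 UMIs of Acsm4. The transgenic Olfr686-led cell had 198 CPM. The Olfr613-led cells all had Acsm4, at 406 to 767 CPM, against 8.88 and 6.82 CPM in ventral-type cells led by other receptors. Their level of Nfix, a ventral-zone gene, was 0, 0, 30.7 and 111 CPM, against 656 and 627 CPM there. Nrp2 was at 246 to 545 CPM, against 120 and 222 CPM. The type name rests on Nqo1 and Ncam2 alone, with 1 to 4 Ncam2 UMIs in each Olfr613-led cell.

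Against all other receptor-led neurons, class I neurons had higher dorsal-zone genes and Tafa4 and lower ventral-zone genes and Bcl11b. With UMIs summed per class and library and the animal as a block in edgeR's quasi-likelihood fit, 152 of 10522 genes (1.44%) passed an adjusted p of 0.05, 86 higher (0.817%) and 66 lower (0.627%) in members. All Olfr genes and all genes of the selection rule were left out. Nqo1 stood at 1079 CPM in the transgenic members and at 1556 CPM in the wild-type ones, against 265 and 379 CPM in the other cells (log2 difference 2.09 ± 0.09 SE, adjusted p 1.38e-12). Acsm4 stood at 583 and 475 CPM in members, against 165 and 144 CPM (1.83 ± 0.11, adjusted p 7.74e-10). Robo2, the receptor for Slit guidance cues, rose by 0.82 ± 0.12 and the fourth dorsal gene, Sema3f, was at 3.27 and 17.2 CPM in members against 6.02 and 11.9 CPM in the others and did not pass. All 5 ventral genes fell. The transcription factor gene Nfix was at 37.6 and 42.1 CPM in members, against 486 and 459 CPM in the others (-3.52 ± 0.16), and Nfib (-2.95) and Nfia (-2.58), of the same nuclear factor I family, fell as well. Ncam2 fell by 3.11 on the log2 scale and the difference of Nrp2 was -1.59. Without the Olfr613-led cells these were -4.06 and -3.39, and Nrp2 did not pass in DESeq2 (adjusted p 1) or without cells holding transgene UMIs (adjusted p 0.338). The 4 dorsal genes had a median of 1.32 and the 5 ventral genes of -2.95, beside -0.0038 over all genes tested. The same 3 dorsal and 5 ventral genes passed without the Olfr613-led cells.

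The largest rise among the genes that the naming rule picked was that of Tafa4, a gene for a secreted chemokine-like peptide. It was at 73.5 and 105 CPM in members, against 2.47 and 3.02 CPM in the other cells (5.04 ± 0.33, adjusted p 1.48e-09). The members were far above the other cells in both libraries. With classes set by receptor family, the Tafa4 difference was 8.25. That setting moves cells led by other class I family receptors into the members. It also leaves out all cells whose leading receptor has no unambiguous family. The adhesion receptor gene Adgrv1 was at 29.4 and 21.1 CPM in members, against 2.47 and 3.43 CPM (3.16 ± 0.53), and the signalling ligand gene Bmp3 was at 29.4 and 23.0 CPM, against 2.62 and 3.43 CPM (3.18 ± 0.51). The calcium-binding protein gene S100z was at 144 and 74.6 CPM, against 40.9 and 12.3 CPM (2.14 ± 0.21), and the membrane protein gene Tmem52 at 53.9 and 15.3 CPM, against 9.57 and 2.42 CPM (2.59 ± 0.41). S100a6, Cxxc5, Ldha and Bhlhe40 complete the 10 named genes. S100a6 was at 838 CPM in transgenic members but at 44.0 CPM in wild-type ones, against 44.5 and 25.6 CPM, and these 4 genes missed the threshold without the Olfr613-led cells (adjusted p 0.0648, 0.292, 0.614 and 0.107). Of 34 named genes that passed, 26 passed without those cells, 21 without cells holding a transgene UMI and 17 in DESeq2. Adgrv1 and Bmp3 missed the threshold without transgene-holding cells (adjusted p 0.0525 and 0.0844). C130074G19Rik, Mdga2, Gldc, Nfia and Nrp1 missed it in DESeq2 (adjusted p 0.0564 to 0.106), as did Calm2 (0.0564), Fos (0.276) and Kirrel2 (0.222), and these last 3 also without transgene-holding cells (0.257, 0.0525 and 0.171).

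Bcl11b, a zinc finger transcription factor known in the mouse as a regulator of the choice between class I and class II receptors, was the only 1 of 12 tested receptor-choice genes to pass. It was at 9.80 and 21.1 CPM in members, against 114 and 130 CPM in the others (-2.96 ± 0.26, adjusted p 1.45e-07), low in members of both libraries. The other 11, which include the homeodomain factors Lhx2 and Emx2, the Lhx2 cofactor Ldb1, the Ebf factors, the demethylase Kdm1a, the nuclear lamina receptor Lbr, the heterochromatin protein Cbx5 and the stress factor Atf5, had log2 differences from -0.22 for Ldb1 to 0.20 for Cbx5. Lhx2 was at 624 and 547 CPM in members, against 643 and 627 CPM (-0.06 ± 0.10), and Ebf1 at 1166 and 1355 CPM, against 1108 and 1371 CPM (0.08 ± 0.08). The list had a median of 0.03.

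Genes named as lower included some at the edge of detection in members. Avp, the vasopressin gene, had 1 UMI over all members and 1483 in the other cells (ratio 0.00679, 95% counting interval 0.000172 to 0.0379), but 1 cell held 90.3% of these in the transgenic library and another 47.0% in the wild-type library. Ifi27, an interferon-induced gene, had 1 UMI in members against 565 spread over many cells (ratio 0.0178, 0.000451 to 0.0998). Mdga2, for a membrane-anchored adhesion protein, had 2 UMIs against 454 (ratio 0.0444, 0.00536 to 0.161), and C130074G19Rik, Gldc and Tex15 had 1, 2 and 2. As with Avp, 1 cell held 80.3% of the Tex15 UMIs of the other transgenic cells and 1 held 74.7% of those of the wild-type ones, and Tex15 did not pass in DESeq2 (adjusted p 0.902). The kinase gene Stk26 was at 6.53 and 1.91 CPM in members, against 43.2 and 42.3 CPM (-3.22 ± 0.45). Nrp1, a semaphorin receptor that helps to set where axons end along the olfactory bulb, was at 13.1 and 5.74 CPM in members, against 66.4 and 35.1 CPM (-2.36 ± 0.34, adjusted p 0.000247).

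Of 17 transduction genes tested 2 rose and 1 fell (17.6%, beside 1.44% of all genes tested), with a median of -0.06. Slc12a2, the transporter that loads neurons with the chloride that leaves during the odour response, was at 354 and 735 CPM in members, against 236 and 489 CPM (0.64 ± 0.10), and the calmodulin gene Calm2 rose by 0.36. Ric8b, a partner of the olfactory G protein, fell by 0.38 and missed the threshold without the Olfr613-led cells (adjusted p 0.0989). The abundant Gng13, a G protein subunit gene, had a difference of -0.10 ± 0.05 and did not pass. None of 5 receptor-transport genes passed, with Rtp1 at 289 and 323 CPM in members, against 298 and 383 CPM, and Hspa8 at 1571 and 857 CPM, against 1928 and 1156 CPM. Among 17 axon guidance genes, Robo2 rose and Nrp1 and Nrp2 fell (17.6%), while Epha5 and Efna3 did not pass. Robo2 and Nrp2, like Ncam2 of the adhesion genes below, are zone genes already given above. Of 10 genes linked to neuronal activity, S100a5, Pcp4l1 and Fos rose and Kirrel2 fell (40%), with a median of 0.27. Fos was at 227 and 144 CPM in members, against 127 and 96.0 CPM (0.78 ± 0.14), and Kirrel2, an adhesion gene, at 660 and 339 CPM, against 989 and 487 CPM (-0.50 ± 0.10). S100a5 and Pcp4l1 missed the threshold without the Olfr613-led cells (adjusted p 0.15 and 0.129). Of 18 adhesion genes 1, Pcdh9, rose and Ncam2 fell, and Pcdh9 missed it without them (adjusted p 0.354), where Pcdh7 passed instead (-2.34, adjusted p 2.58e-06), while Cntn4 and Ncam1 did not pass.

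Set against ventral-type neurons, members were higher in dorsal genes and in Tafa4 and lower in the nuclear factor I genes and in Bcl11b. In a fit over 6 sums, 182 of 9716 genes (1.87%) passed, 98 higher (1.01%) and 84 lower (0.865%) in members, with Nqo1 and Ncam2 left out because they defined the types. Acsm4 was at 583 and 475 CPM in members, against 8.88 and 6.82 CPM in ventral-type cells (6.12 ± 0.14, adjusted p 2.35e-10). Papss2, which makes the sulfate donor of the cell, was at 118 and 47.8 CPM, against 2.71 and 3.41 CPM (4.86 ± 0.42). Tafa4 had 100 UMIs in all members and 1 in all ventral-type cells, a ratio of 615 with a counting interval from 108 upward. Adgrv1 and Bmp3 rose by 5.10 and 4.21. Nfix was at 37.6 and 42.1 CPM in members, against 656 and 627 CPM (-3.95 ± 0.18), and Nfib at 19.6 and 36.4 CPM, against 265 and 329 CPM (-3.36 ± 0.18). Ppp1r3b, a subunit that brings a phosphatase to glycogen, had 0 UMIs in members and 170 in ventral-type cells, which is at least 9.21-fold lower with a limit of 3 counts over all members. Pard3bos2 had 0 UMIs in members and 129 in ventral-type cells, at least 6.99-fold lower. DESeq2 did not call Pard3bos2, and it had no value without transgene-holding cells or with classes by receptor family. Avp, Ifi27 and C130074G19Rik, with 1 UMI each in members, had 1477, 471 and 313 UMIs in ventral-type cells. Of the 3 dorsal genes tested Acsm4 and Robo2 rose, and all 4 ventral genes tested fell. Bcl11b (-3.06) and Nrp1 (-2.34) fell. Nrp2 differed by -2.01 with all members and by -3.80 without the Olfr613-led cells, and DESeq2 did not call it (adjusted p 0.608). Without those cells Efna3, Epha5 and Ncam1 also passed (adjusted p 0.0187, 0.0297 and 0.0168). Slc12a2 and Calm2 rose by 0.92 and 0.50, while Kirrel2 (-0.69) and Hspa8 (-0.38), a chaperone gene, fell. Hspa8 missed the threshold in DESeq2 (adjusted p 0.145) and in edgeR without transgene-holding cells (adjusted p 0.0695).

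Set against dorsal-type neurons led by other receptors, members had higher Tafa4, Cd55, Tppp3, S100a5 and Cd9 and lower Bcl11b, Nrp1 and Mslnl, while no zone gene passed with all members kept. With all members kept, 13 of 9716 genes (0.134%) passed the threshold, 10 higher (0.103%) and 3 lower (0.0309%) in members. This comparison and the one with ventral-type neurons share the members' sums. Acsm4 was at 583 and 475 CPM in members, against 540 and 503 CPM in dorsal-type cells (0.06 ± 0.10), Robo2 differed by 0.15 ± 0.15 and Nfix by -0.44 ± 0.24. None of the 3 dorsal and 4 ventral genes tested passed. Nfix rests on single cells, since 1 cell held 59.1% of the 22 wild-type member UMIs. Without the 7 ventral-type members, themselves chosen by zone genes, Nfix differed by -2.05 and passed (adjusted p 0.00392), and Nfib differed by -0.91 in place of 0.18 (adjusted p 0.694). Nrp2, a ventral gene, was at 60.4 and 13.4 CPM in members, against 36.2 and 33.3 CPM, opposite in direction in the 2 animals. Its difference was 0.19 with all members and -1.61 without the Olfr613-led cells, with an adjusted p of 0.216. Nfia and Nfib also did not pass.

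Tafa4 was one of the genes that set members apart from dorsal-type cells. It was at 73.5 and 105 CPM in members, against 9.50 and 10.6 CPM in dorsal-type cells (3.16 ± 0.31, adjusted p 0.00129). A Tafa4 UMI was found in 26 of 41 transgenic members (63.4%, exact interval 46.9% to 77.9%) and 30 of 48 wild-type members (62.5%, 47.4% to 76.0%). It was found in 5 of 121 and 9 of 115 dorsal-type cells (4.13%, 1.36% to 9.38%, and 7.83%, 3.64% to 14.3%). The cells led by other receptors include 4 transgenic and 12 wild-type ones whose receptors have class I family names. With classes set by receptor family the Tafa4 difference from dorsal-type cells was 6.92 (adjusted p 9.63e-06). Cells with a Tafa4 UMI were not counted in that setting, so these shares are not those of class II neurons alone. In ventral-type cells it was found in 0 of 266 transgenic cells, which allows up to 1.13%, and in 1 of 207 wild-type cells. Barcodes with at most 1 Omp UMI, which may include immature neurons, were counted for comparison, at medians of 13459 and 12381 UMIs. None of 780 transgenic ones carried a Tafa4 UMI, which allows up to 0.385%, and 0.551% of the wild-type ones did. Cd55, which shields cells from complement, was at 214 and 478 CPM in members, against 38.6 and 71.8 CPM in dorsal-type cells (2.67 ± 0.21, adjusted p 0.000378). In ventral-type cells Cd55 was at 228 and 267 CPM, and the members' difference from these did not pass (0.47, adjusted p 0.254). Tppp3, which promotes the assembly of tubulin, was at 132 and 142 CPM in members, against 8.90 and 30.2 CPM in dorsal-type cells (2.93 ± 0.29, adjusted p 0.00129), and at 43.9 and 56.0 CPM in ventral-type cells (1.54, adjusted p 0.00336).

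S100a5, an abundant calcium-binding protein gene of olfactory neurons whose level follows their activity, was at 22973 and 14331 CPM in members, against 16027 and 7516 CPM in dorsal-type cells (0.76 ± 0.08, adjusted p 0.00138). In ventral-type cells it was at 22644 and 12252 CPM, a difference that did not pass (0.20, adjusted p 0.297). The tetraspanin gene Cd9 was at 746 and 651 CPM in members, 415 and 428 CPM in dorsal-type cells and 695 and 668 CPM in ventral-type cells. Cd55, S100a5 and Cd9 thus lay lowest in dorsal-type cells in both libraries, and the difference between dorsal-type and ventral-type cells was not tested. S100z, Hspa2 and Tsc22d1 also rose over dorsal-type cells, by 1.33, 1.86 and 0.54. Bcl11b was at 9.80 and 21.1 CPM in members, against 106 and 96.7 CPM in dorsal-type cells (-2.72 ± 0.30, adjusted p 0.00256), and Nrp1 at 13.1 and 5.74 CPM, against 78.9 and 34.8 CPM (-2.54 ± 0.33, adjusted p 0.00881). Mslnl, a gene related to mesothelin, was at 139 and 157 CPM, against 267 and 284 CPM (-0.86 ± 0.12). The lower genes with the next smallest p did not pass, with Etv3 at -0.98 (adjusted p 0.0546) and Car2 at -1.26 (adjusted p 0.156), besides B830017H08Rik, Rtn1 and Ptn. Pcp4l1, linked to activity, also missed it (0.72, adjusted p 0.0653), but was called in 9 of 12 alternatives, among them DESeq2 (adjusted p 0.000353). Without the Olfr613-led cells Pcp4l1 (adjusted p 0.00915), Etv3 (0.0195), B830017H08Rik (0.0167) and Rtn1 (0.00725) passed. Of the adhesion genes, none of which passed with all members, Pcdh7 (-2.56, adjusted p 3.3e-05) and Pcdh11x (2.21, adjusted p 0.00213) then passed as well. S100a6 and Scg2 complete the 13. Scg2 was at 116 CPM in the transgenic members, of which 63.4% came from 1 cell, and at 0 UMIs in wild-type members, against 1.78 and 0.756 CPM in dorsal-type cells. Scg2 was too rare to be tested without the Olfr613-led cells, and the other 12 passed without them. S100a6 was among these, but its difference was 1.32 without them in place of 3.99, and DESeq2 did not call it (adjusted p 0.617) or Scg2.

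**Figure D3:**
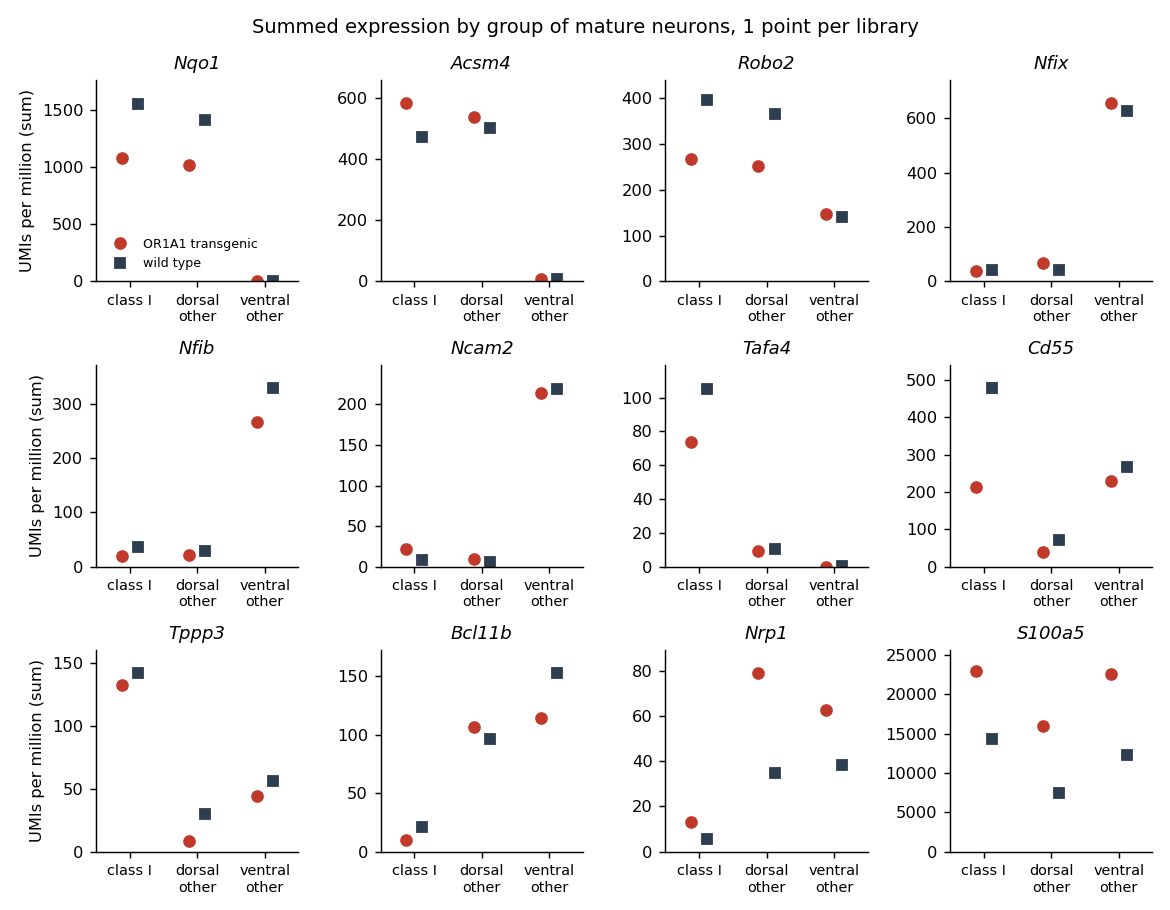
Summed expression (y axis, CPM, linear from 0) of 12 genes in class I-led cells, dorsal-type and ventral-type cells led by other receptors (x axis); circles are the transgenic and squares the wild-type library. Nqo1 and Ncam2 define the dorsal and ventral types; Acsm4 lies at similar levels in members and dorsal-type cells, while Tafa4 is highest and Bcl11b and Nrp1 are lowest in members in both libraries.

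These fits rest on 2 animals and few residual degrees of freedom. Without the animal as a block, which is part of the design here because both classes come from the same 2 animals, 6, 18 and 0 genes passed against all other, ventral-type and dorsal-type cells. Against dorsal-type cells 364 genes then had an unadjusted p under 0.05, and DESeq2 with the block called 17. With the block, the p-values rest on how far the difference between classes varied between these 2 libraries. They do not measure the spread between animals.

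Among members led by the 8 receptors with 3 or more cells, Nqo1 was at 1540 CPM or more in all 7 Olfr591-led, all 4 Olfr661-led and all 6 Olfr672-led cells, with medians of 2397, 2390 and 2239 CPM, and at 0 in all 4 Olfr613-led cells. Cd55 had a median of 792 CPM in the 7 Olfr591-led cells, with 0 in 1 of them and 2266 CPM in the highest, and was found in all 6 Olfr672-led cells at 112 to 1571 CPM. It was at 0 in all 3 Olfr683-led cells and had a median of 0 in the 56 members led by receptors with 1 or 2 cells. Tafa4, in contrast, was found in all 3 Olfr683-led cells at 81.8 to 233 CPM. Tppp3 was at 0 in the 3 Olfr594-led, 4 Olfr661-led and 3 Olfr683-led cells and found in all 4 Olfr613-led cells. Tafa4 had 100 UMIs over all 89 members, so a value of 0 in 1 cell is at the limit of detection. These cells were few, so no test was made.

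**Figure D4:**
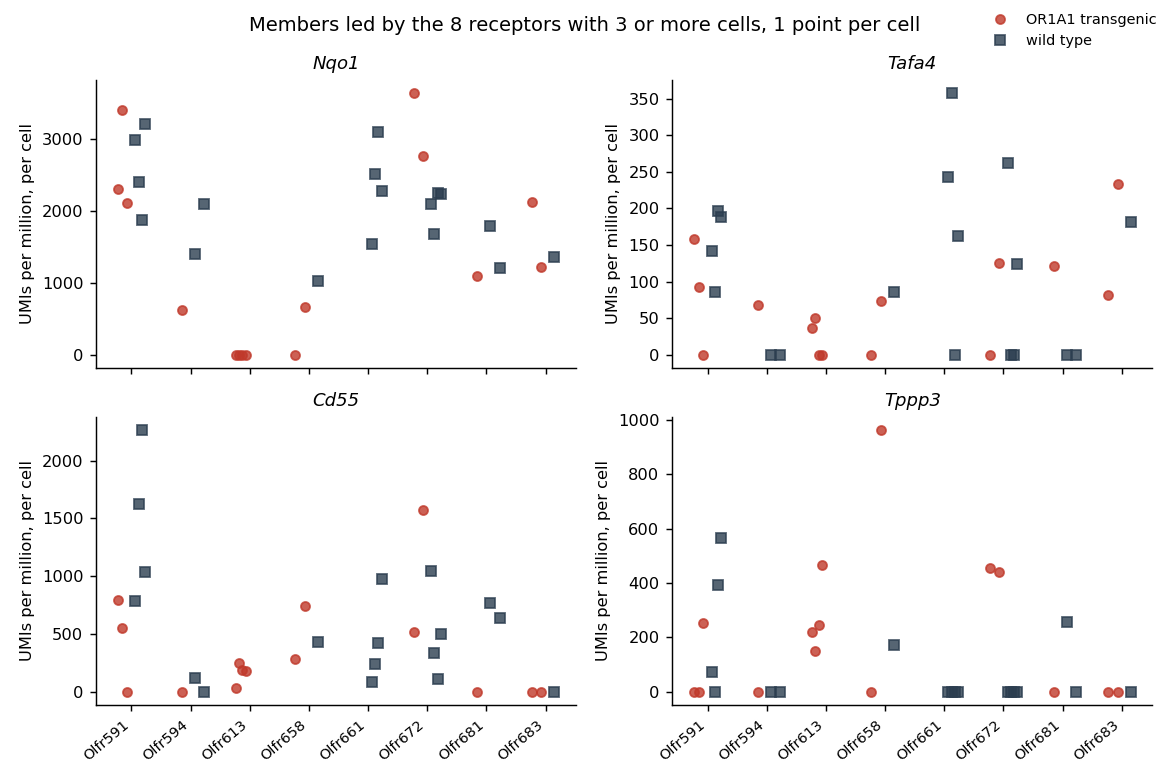
Expression of Nqo1, Tafa4, Cd55 and Tppp3 (y axis, CPM in each cell) in members led by the 8 receptors with 3 or more cells (x axis); circles are transgenic and squares wild-type cells. Olfr613-led cells lie at 0 for Nqo1, and Olfr683-led cells lie at 0 for Cd55.

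The 4 Olfr613-led cells formed a set of their own, noticed in these data and so described without a test. At a minimum mean of 200 CPM, 26 non-receptor genes were higher in each of them than in any of the other 37 transgenic members. Another 6 were at 0 in all 4. The share of such genes among all genes at that level was not counted. Wild-type members were not part of this rule. Among the 26, Pebp1, Nrxn2 and Pcdh1 reached 185, 161 and 218 CPM in wild-type members, against lowest values of 111, 92.1 and 175 CPM in the 4. Fxyd2, the gamma subunit of the sodium pump, was at 6493, 8317, 8334 and 10229 CPM in the 4 cells and at 0 in all 37 others. Ppa1, an inorganic pyrophosphatase, was at 14301, 20650, 23673 and 29888 CPM, against at most 3165 CPM in the others. S100a6 was at 1991, 3805, 6444 and 9586 CPM, against at most 1277 CPM. Genes of regulated secretion were among the 26, with Scg2 at 351, 369, 446 and 1381 CPM, against at most 71.0 CPM, and with Resp18 and Ptprn. Ache, the acetylcholinesterase gene, was at 73.7 to 644 CPM and at 0 in the others, and Pcdh7, Nrp2, Fxyd6, Ldhb and the transcription factor gene Etv4 were also in the set.

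Of 18 detected transduction genes of the list, 14 had a lower mean in the Olfr613-led cells than in the other 37 transgenic members. The remaining 4 had a higher one, and 10 of the 18 were below the others' median in all 4 cells. The same shares over all genes were not counted, so these counts describe the list only. Gnal was at 351, 664, 694 and 1289 CPM, against a median of 3199 CPM and a lowest value of 889 CPM in the other 37. Cnga2 averaged 115 CPM, against 541 CPM, and the chloride channel gene Ano2 averaged 33.8 CPM, against 257 CPM. Cartpt, a peptide precursor gene, averaged 301 CPM, against 2755 CPM. The 6 genes at 0 were Nqo1, Umodl1, Pcolce2, Pcdh17, Efna3 and Fam217a, of which Umodl1 and Pcolce2 were found in all 37 other transgenic members, at medians of 710 and 584 CPM. Omp was at 3321 to 3916 CPM, inside the range of 2816 to 7783 CPM of the others, and Stoml3 at 2139 to 3024 CPM, in the low part of theirs, and both had been thresholds of the rule. Acsm4 was at 406 to 767 CPM, near the median of 555 CPM in the others, and Bcl11b was at 0 in all 4. Gucy2d, Trpc2 and Gucy1b2 were at 0. The 4 cells had 17108, 20175, 27119 and 32585 UMIs and mitochondrial shares of 9.45%, 8.71%, 9.95% and 6.60%, against medians of 14573 UMIs and 4.92% in all transgenic members, and the part of depth or of cell quality in their profile was not tested. All 326 Olfr613 UMIs of kept transgenic barcodes came from these 4 cells, and kept wild-type barcodes held none.

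**Figure D5:**
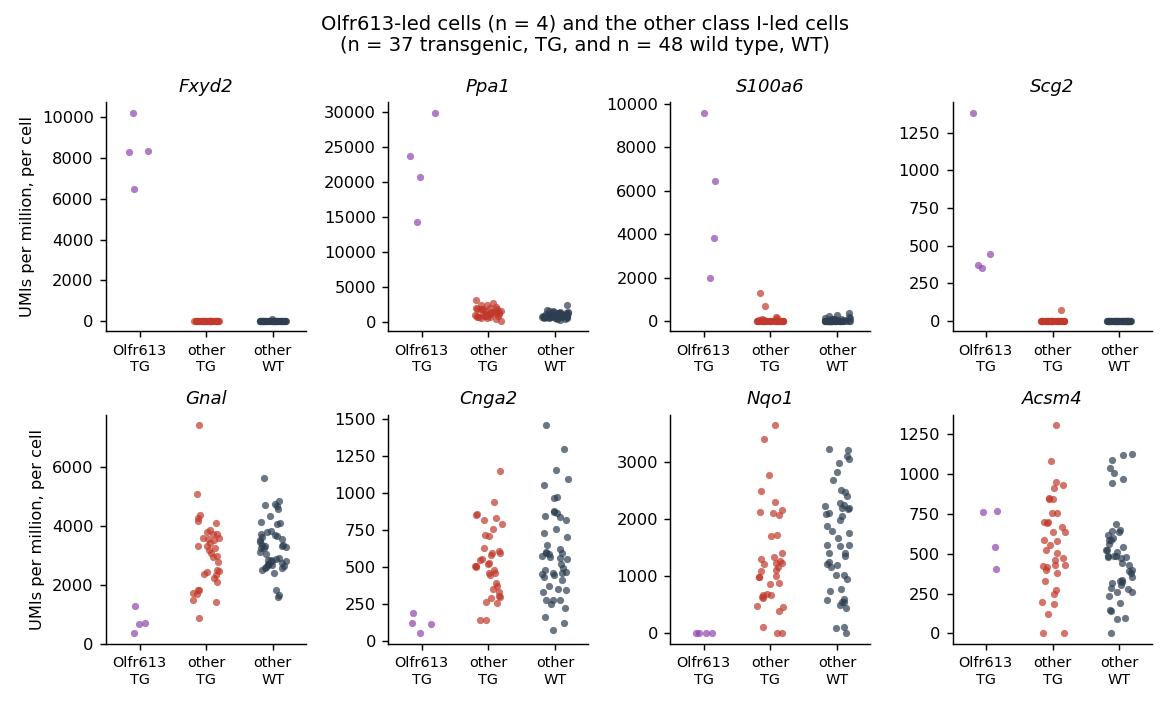
Expression of 8 genes (y axis, CPM in each cell) in the 4 Olfr613-led cells, the other 37 transgenic members and the 48 wild-type members (x axis, 1 point per cell). Fxyd2, Ppa1, S100a6 and Scg2 are above all other members, Gnal and Cnga2 are low, Nqo1 is at 0 and Acsm4 lies within the range of the others.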

How the data were processed

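Olfactory epithelia were dissociated with enzymes and run on 10x Genomics 3′ v3.1 chemistry, per the labels' protocols. The authors deposited whole UMI counts for every gene and barcode, not filtered to cells. The submitters' processing notes name Cell Ranger 6.1.1 with GRCm39 (mm39), while Cell Ranger 4 stands in the matrix headers. The added feature 1A1_tg, whose sequence was not at hand, was taken as the transgene.

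Cells were filtered and classed in Python 3.11.15, with no doublet caller and no clustering. UMIs were summed per library and class and tested with edgeR 4.0.16 (TMM, filterByExpr, quasi-likelihood test, Benjamini-Hochberg adjustment) with the animal as block, because each animal gave both classes, over 4 sums (1 residual degree of freedom) or, for the zone types, 6 sums (2). The procedure was tested on simulated data. Named genes were those passing with the largest change, the same direction in both libraries and a mean of 10 CPM (10 per direction, 5 for zone types), all zone and receptor-choice genes, and of other lists those passing and the 2 most abundant, and a gene so picked is not reported here. Members and lists were chosen with earlier results of these data known. Receptor families and gene order came from RefSeq (GRCm38), without coordinates. Alternatives were RLE size factors, DESeq2 1.42.0, no filter, no block, stricter receptor and zone rules, classes by family, thinning, and leaving out cells.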

Additional observations from a re-analysis of the deposited data

Results flagged for a closer look

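Nrp2 had opposite directions in the 2 animals when members were set against dorsal-type cells. For Nrp2 the log2 ratio of the summed levels was 0.754 in the OR1A1 transgenic animal and -1.15 in the wild-type one. The Olfr613-led cells, all transgenic, held 246 to 545 CPM of Nrp2, against at most 142 CPM in the other transgenic members, and the difference over both animals was -1.61 without them. With 1 animal per genotype the difference between the animals was not tested.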

How the results depend on the processing

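No named gene that passed reversed its direction under the alternatives run, while named genes near 0 did not keep theirs in every alternative and the number of calls depended strongly on the setting. Both classes came from the same animals, and without the replicate block 6, 0 and 18 genes passed against all other, dorsal-type and ventral-type cells, in place of 152, 13 and 182 (against dorsal-type cells 364 genes had an unadjusted p under 0.05 there, and DESeq2 called 17). Against all other cells, DESeq2 called 45 genes, no filter on low counts 230, a leading receptor of 10 or more UMIs 265, leaving out cells with a transgene UMI 52 and thinning to 5000 UMIs 64. Against dorsal-type cells, no filter gave 127, no second receptor 27, thinning 28, class by receptor family 28 and a stricter zone rule 23. Against ventral-type cells, DESeq2 gave 100 and no filter 464. Chosen after seeing the data, leaving out ventral-type members gave 266, 28 and 355 calls, and leaving out Olfr613-led cells gave 157, 23 and 318, of which 120, 12 and 172 were among the main calls. Thinning gave median leading-receptor UMIs of 29 and 49.5 in transgenic and wild-type members and of 33 and 46 in the other cells. A transgene UMI was then found in 24.4% of transgenic members and 17.7% of the other receptor-led transgenic cells. Without 1 of the 2 animals no degrees of freedom remain, and the ratios of the remaining animal are values without a test. Depth limits genes such as Tafa4 to about a UMI per cell.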

Other observations

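Outside the range of names that defined the members, 4 transgenic and 12 wild-type mature cells were led by receptors with class I family names, Olfr243, Olfr33, Olfr543, Olfr67, Olfr68 and Olfr69, and counted among the other cells. Olfr68 led 1 transgenic and 4 wild-type cells and Olfr543 led 1 and 3.

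A wild-type Olfr1346-led cell held Fxyd2 at 10778 CPM, above the highest Olfr613-led cell, and Ppa1 at 11496 CPM. A transgenic Olfr1509-led cell held Fxyd2 at 728 CPM, far below them, and Ppa1 at 9312 CPM. Kept barcodes that were not mature neurons held Fxyd2 at 4589, 1436 and 568 CPM in the transgenic library and at 1310 CPM in the wild-type one, with Ppa1 at most 291 CPM. None of these cells held an Olfr613 UMI.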
